A study of Homo sapiens with 21 samples.

Results

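Irradiated, senescent IMR90 cells that carried a non-targeting siRNA were compared with proliferating IMR90 cells, in 9 of the 21 RNA-seq libraries of the series. The members were chosen by their labels. They were 3 libraries of proliferating cells, 3 of irradiated cells given the non-targeting siRNA NT3 and 3 of irradiated cells given the non-targeting siRNA NT4, with the 2 controls weighted equally. IMR90 is an established line of human lung fibroblasts, and all 9 libraries were labelled wild type. Per the labels, the irradiated cells received 5 nM siRNA with the lipid reagent DharmaFECT on days 4 and 7 after irradiation and were collected on day 10. The radiation dose was not given in the sources used here. The proliferating cells were labelled as untreated, that is, neither irradiated nor transfected. Irradiation, transfection, time in culture and cell density therefore cannot be told apart in this comparison. All cells came from 1 line, and nothing in the labels says that the libraries of a group came from separate cultures, so p-values measure only the spread between these samples, which may be technical. The other 12 libraries, irradiated cells with siRNA against CCND1, CDK4 or CDK6, were not used in the main test.

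Senescence is a lasting exit from the cell cycle that irradiated fibroblasts enter through the p53 and RB pathways. p53 induces the CDK inhibitor p21 (CDKN1A), and RB-family proteins, no longer phosphorylated by CDKs, then hold E2F and the DREAM complex on S phase and mitotic promoters and keep those genes low. Senescent cells also secrete cytokines, chemokines and proteases, the senescence-associated secretory phenotype (SASP), for which NF-kB and C/EBPb are known regulators, and they can switch on interferon-stimulated genes through a complex that holds STAT2 and IRF9.

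The promoters below show the sequence elements that those regulators recognise, in the member with the largest change among those that hold the element in 4 of the gene lists. Each is the 250 bases before the annotated start (RefSeq, GRCh38.p14), 5′ to 3′ on the strand of the gene, with the matched element in capitals. RSAD2 (viperin, an antiviral enzyme) lies on chromosome 2 and its shown promoter is chr2:6865635-6865884 on the plus strand, with an interferon response element (GAAANNGAA) that begins 79 bases before the start. CXCL1 (a neutrophil-attracting chemokine), chr4:73869143-73869392, plus strand, holds an NF-kB site (GGANTTTCC) 78 bases before the start. UHRF1 (a factor that maintains DNA methylation after replication), chr19:4909251-4909500, plus strand, holds an E2F site (TTTCCCGC, read on the opposite strand, so that the capitals show its complement) 14 bases before the start. MKI67 (the proliferation antigen Ki-67), chr10:128126424-128126673, minus strand, holds 2 CHR elements (TTTGAA), the element bound by DREAM, 47 and 29 bases before the start.
RSAD2: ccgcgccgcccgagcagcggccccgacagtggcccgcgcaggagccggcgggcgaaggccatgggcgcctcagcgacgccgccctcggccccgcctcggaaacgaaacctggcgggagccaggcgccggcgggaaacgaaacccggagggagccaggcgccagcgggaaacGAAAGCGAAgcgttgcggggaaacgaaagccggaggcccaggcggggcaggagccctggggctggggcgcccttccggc
CXCL1: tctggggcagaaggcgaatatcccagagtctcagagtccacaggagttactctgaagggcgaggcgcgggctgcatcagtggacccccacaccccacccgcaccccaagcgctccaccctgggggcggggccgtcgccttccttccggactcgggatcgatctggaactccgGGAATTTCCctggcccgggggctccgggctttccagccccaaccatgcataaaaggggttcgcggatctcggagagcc
UHRF1: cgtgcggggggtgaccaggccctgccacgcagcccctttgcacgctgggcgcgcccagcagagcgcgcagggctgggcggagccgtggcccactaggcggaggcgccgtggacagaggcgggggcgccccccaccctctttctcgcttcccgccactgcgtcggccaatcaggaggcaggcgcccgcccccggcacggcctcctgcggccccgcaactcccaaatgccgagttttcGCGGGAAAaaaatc
MKI67: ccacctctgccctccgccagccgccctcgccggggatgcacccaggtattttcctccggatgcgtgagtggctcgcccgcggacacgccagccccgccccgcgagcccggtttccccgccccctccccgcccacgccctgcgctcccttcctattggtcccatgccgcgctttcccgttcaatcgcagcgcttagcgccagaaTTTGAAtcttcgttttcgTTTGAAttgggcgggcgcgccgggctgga
RSAD2 and CXCL1 were among the genes that rose most, and UHRF1 and MKI67 fell 7.35-fold and 12.3-fold. A match is a description of the letters and not of binding.

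Values are read counts divided by a size factor for each library, called normalised counts here. Of 16383 listed genes, 11374 reached a value of 10 in at least 3 of the 9 libraries and were tested with limma on log2(value + 1), and 505 of these passed through 1 arm only, among them 15 SASP genes, 9 interferon effectors and 0 to 3 members of each other list. Fold changes are on that scale, which understates the change of low genes, and standard errors (SE) describe the spread between libraries. Reads in the listed genes numbered 12892442 to 21822152 per library, and more genes had a read in senescent libraries (13108 to 13923) than in proliferating ones (12268 to 12561). On the main axis of a principal component analysis of these 9 libraries (76.7% of the variance) the proliferating libraries lay at -72.2 to -69.9 and the senescent ones at 29.4 to 43.3. NT3 replicate 3 stood apart on the second component (-42.9, the other 8 libraries at -6.07 to 21.9). It also differed from the other NT3 libraries far beyond sampling noise, with a chi-square per gene of 39.2 and 60.2 against 2.98 to 5.81 for the other pairs within groups. Counts of calls in a gene list that it moves are given with and without it. In bulk RNA, fewer cells of a type and less RNA per cell cannot be told apart.

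The change was broad. At an adjusted p under 0.05, 7243 of the 11374 genes were called (63.7%), 3410 higher in senescent cells (30.0%) and 3833 lower (33.7%); without NT3 replicate 3 these counts were 3924 and 4480. Calls larger than 1 on the log2 scale were fewer, with 1182 higher (10.4%) and 872 lower (7.67%). The libraries of the arms did not overlap for 6211 genes (54.6%). Beyond 3 on the log2 scale, 208 genes were higher and 44 lower. The median log2 fold change of all tested genes was -0.03, and the counts of a list below are to be read against these shares. Centring each library on its median value shifted fold changes, since the median log2 level of senescent libraries stood at -0.115 relative to proliferating ones, and it moved the share of calls that were higher from 47.1% to 58.0%. The plot of list members shows the 4 cell cycle lists to the left of 0 and the SASP and interferon lists farthest to the right.

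**Figure D1:**
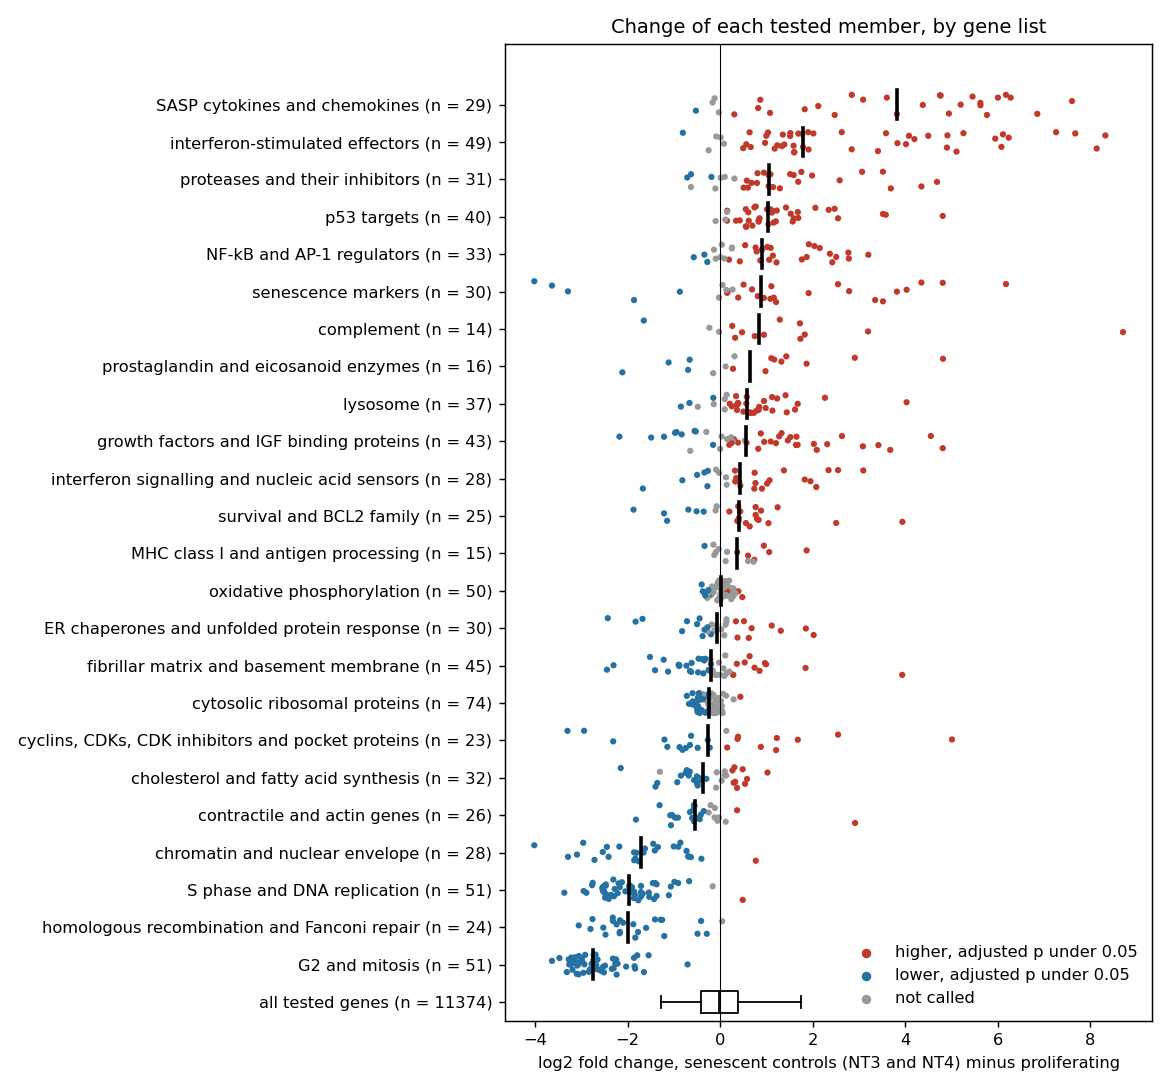
Log2 fold change (senescent controls minus proliferating, horizontal axis) of every tested member of 24 gene lists, with 1 point per gene, coloured by its call, and a black bar at each list's median. The box at the bottom gives the quartiles of all 11374 tested genes with whiskers at the 5th and 95th percentiles; list medians run from -2.74 (G2 and mitosis) to 3.82 (SASP).

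Genes of DNA replication fell almost without exception. Of 51 tested S phase genes, 49 were lower, 1 higher and 1 not called, with a median log2 fold change of -1.96 (50 lower without NT3 replicate 3). E2F8, an E2F family repressor that is itself an E2F target, was at 152, 160 and 149 in proliferating libraries, at 17.6, 14.9 and 15.8 with NT3 and at 12.2, 11.7 and 12.5 with NT4. All 6 senescent libraries lay an order of magnitude below the proliferating ones, with a log2 fold change of -3.37 (SE 0.16, adjusted p = 1.59e-08). PRIM1, the catalytic subunit of DNA primase, was 222 to 270 in proliferating and 18.2 to 43.4 in senescent libraries (log2 fold change -2.95). UHRF1 fell from 2047, 1992 and 2167 to 301, 299 and 194 with NT3 and 276, 317 and 302 with NT4 (log2 fold change -2.89, SE 0.13, adjusted p = 9.47e-09). CCNE1, the cyclin E1 gene of the G1 to S transition, was the only member called higher, at 102.2 to 116 in proliferating cells, 166 to 212 with NT3 and 119 to 139 with NT4 (log2 fold change 0.49, adjusted p = 0.00271). Its arms did not overlap, but the NT4 libraries came close to the proliferating ones. RPA2, a subunit of the single-strand DNA binding complex RPA, was not called (537 to 669 in senescent and 620 to 654 in proliferating libraries). PCNA, the sliding clamp of DNA polymerase, fell less than most of the list, from 1979 to 2007 down to 705 to 1214 (log2 fold change -0.99).

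The G2 and mitosis genes fell further than the replication genes, with all 51 tested members lower and a median log2 fold change of -2.74; the arms of all 51 did not overlap. NUF2, part of the kinetochore complex that grips microtubules, was 744, 756 and 808 in proliferating libraries, 68.5, 62.4 and 84.9 with NT3 and 76.8, 53.5 and 68.3 with NT4. Senescent cells thus held 8.98% of the proliferating level (log2 fold change -3.47, SE 0.14, adjusted p = 3.35e-09). CENPF, a large kinetochore protein of G2 cells, and CENPA, the centromeric histone, were left at 10.2% and 10.6%, and NCAPH of condensin I at 10.6%. MKI67 was left at 8.15%. The smallest falls in the list belonged to BUB3, a checkpoint protein that is also present outside mitosis (2942 to 2998 against 1688 to 2132, log2 fold change -0.70), and ECT2, a guanine nucleotide exchange factor of cytokinesis (-1.54). Without NT3 replicate 3 all 51 were again lower.

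Homologous recombination and Fanconi genes, which repair replication-linked DNA damage and are transcribed with S phase, fell with the cycle genes: 23 of 24 were lower and 1 not called, with a median of -1.99. BLM, the helicase mutated in Bloom syndrome, was 307, 291 and 286 in proliferating libraries and 26.3 to 41.5 in senescent ones (log2 fold change -3.05, SE 0.17). FANCD2, the protein ubiquitinated by the Fanconi core complex, was 656 to 759 against 71.6 to 140 (log2 fold change -2.80). ATR, the kinase that answers stalled forks, fell little (-0.29, adjusted p = 0.0352). It lost the call in several alternatives, among them median centring (-0.17), edgeR (-0.25) and DESeq2 (-0.24). The count of lower members was 21 with median centring and 22 with edgeR and with DESeq2. PALB2, the partner of BRCA2, was 245 to 276 in proliferating and 239 to 321 in senescent libraries and was not called (0.05, SE 0.10). The 2 groups overlapped for PALB2.

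Chromatin and nuclear envelope genes were lower in 27 of 28 cases, with a median of -1.70. LMNB1, the lamin B1 gene whose loss is a common senescence marker, was left at 6.24% of its proliferating level (2460, 2540 and 2739 against 126 to 217). HMGB2, a chromatin protein, was 3903, 4081 and 3817 in proliferating cells, 413, 350 and 650 with NT3 and 339, 360 and 365 with NT4. The arms lay far apart, although NT3 replicate 3 was the highest of the senescent libraries (log2 fold change -3.29, SE 0.15, adjusted p = 1.21e-08). HMGA2, an architectural protein found in senescence-associated heterochromatin, was the 1 member that rose. Its values were 5740, 5715 and 5731 in proliferating cells, 10873, 11354 and 10080 with NT3 and 8535, 8711 and 9453 with NT4, without overlap (log2 fold change 0.77, SE 0.06, adjusted p = 8.2e-07). Its relative HMGA1 was lower, from 18782 to 19680 down to 10812 to 13122 with NT3 but only to 17824 to 18036 with NT4 (log2 fold change -0.40), and the 2 controls differed for it by 0.59 (adjusted p = 0.000787).

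Among cyclins, CDKs, CDK inhibitors and pocket proteins the changes went both ways, with 9 of 23 higher, 13 lower and 1 not called. CDKN1A was at 5007, 5060 and 4963 in proliferating libraries, at 28356, 29070 and 30843 with NT3 and at 28151, 29924 and 29757 with NT4. The 6 senescent libraries lay within a narrow band 5.86 times higher (log2 fold change 2.55, SE 0.06, adjusted p = 2.09e-10). CDKN2B, the p15 inhibitor of CDK4 and CDK6, was 186 to 220 against 467 to 513, a ratio of 2.32. CDKN2A, which encodes p16 and ARF, was 192 to 210 in proliferating and 188 to 252 in senescent libraries; the arms overlapped and it was not called (0.14, SE 0.10, adjusted p = 0.265). CDKN2A and CDKN2B are neighbours on chromosome 9 (21967752 to 21995324 and 22002903 to 22009313), and how reads of overlapping transcripts were assigned is not given in the sources used here. The third INK4 inhibitor named, CDKN2C (p18), moved the opposite way, from 719, 795 and 808 down to 83, 68.8 and 88.6 with NT3 and 80.1, 69.1 and 77.9 with NT4 (log2 fold change -3.30, SE 0.11, adjusted p = 1.21e-09). CDKN3, a phosphatase of CDK1 and CDK2 that peaks in mitosis, fell with it (-2.94).

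The 3 D-type cyclins rose while their kinase CDK4 fell. CCND2 was 117, 119 and 112.5 in proliferating libraries and 3314 to 4240 in senescent ones, a ratio of 32.7 (log2 fold change 5.01, SE 0.06, adjusted p = 1.37e-12). CCND1 was 15928 to 16648 against 25615 to 48813 (log2 fold change 1.23), and CCND3 1120 to 1187 against 1814 to 2326 (0.88). No library of one arm reached the other for any of the 3. CDK4 fell from 2160 to 2219 down to 1158 to 1356 (-0.81, SE 0.07) and CDK6 rose from 3483 to 3706 up to 4147 to 5689 (0.39, adjusted p = 0.00286). CCND3 was picked after its values were seen.

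**Figure D2:**
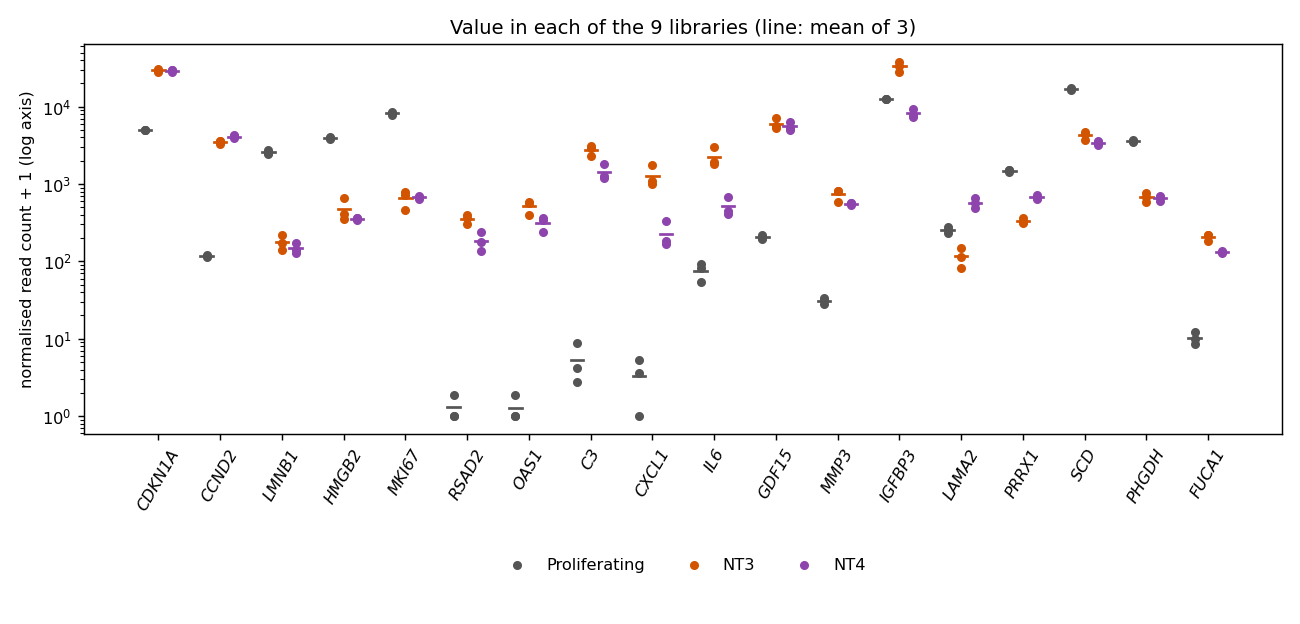
Normalised read count + 1 (vertical log axis) in each of the 9 libraries for 18 genes of the cell cycle, interferon, SASP, matrix and metabolic lists, with 1 point per library and a line at the mean of 3. CDKN1A, CCND2, RSAD2, OAS1, C3, CXCL1, IL6, GDF15, MMP3 and FUCA1 were higher in all 6 senescent libraries, LMNB1, HMGB2, MKI67, PRRX1, SCD and PHGDH were lower in all 6, and IGFBP3 and LAMA2 lay on opposite sides of the proliferating cells with NT3 and NT4.

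p53 targets rose in 37 of 40 cases, none fell and 3 were not called, with a median of 1.03. GDF15, a TGF-beta family stress cytokine, was 193, 221 and 198 in proliferating libraries, 5293, 5624 and 7139 with NT3 and 5056, 6414 and 5253 with NT4, 28.4 times higher without overlap (log2 fold change 4.81, SE 0.11, adjusted p = 1.81e-10). TNFRSF10C, a decoy receptor for the death ligand TRAIL, was 19.2 to 28.3 against 121 to 352 (3.52, SE 0.28); NT3 replicate 3 held its lowest senescent value. MDM2, the ubiquitin ligase that p53 induces against itself, was 1862 to 1888 against 5734 to 6218 (1.68, SE 0.05). The 3 uncalled targets included BAX, the pore-forming apoptosis protein (1622 to 1849 against 1377 to 2132), and POLH, the lesion-bypass polymerase eta (1053 to 1105 against 909 to 1457), which overlapped between the arms. Without NT3 replicate 3, 38 were higher, 1 lower and 1 not called.

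SASP cytokines and chemokines held the highest list median, 3.82 (2.001 with a pseudocount of 10, 2.79 with quantile normalization and 4.86 with a pseudocount of 0.1). Of 29 tested members, 25 were higher, 1 lower and 3 not called. But 15 of the 29 passed the filter through 1 arm only and had to differ, so the count and the median describe them and support nothing. CXCL8 (interleukin 8) was 44.5, 40.4 and 48.7 in proliferating libraries, 5131, 5495 and 6662 with NT3 and 1601, 2583 and 1640 with NT4. Every senescent library was above every proliferating one, and the NT3 libraries were above the NT4 ones (log2 fold change 6.18, SE 0.15, adjusted p = 2.15e-10). IL6, the inflammatory cytokine that defines much of the SASP, was 80.4, 53.2 and 91.2 in proliferating cells, 1824, 1919 and 2993 with NT3 and 408, 682 and 451 with NT4 (3.82, SE 0.22). The upstream cytokines IL1A and IL1B rose by 5.63 (SE 0.34) and 4.77 (SE 0.22), from 0.873 to 5.31 and 8.73 to 17.7 up to 74.6 to 265 and 177 to 774. CXCL1 had 7 reads in all over the proliferating libraries (values 2.62, 4.26 and 0) and was 1081, 1007 and 1763 with NT3 and 185, 333 and 165 with NT4. How reads shared with its near relatives CXCL2 and CXCL3 were assigned is not given in the sources used here. CXCL10, an interferon-induced T cell chemokine, was 4.26 to 6.2 against 464 to 1450 (6.86, SE 0.21). IL1A, CXCL1 and CXCL10 were under 10 in every proliferating library. They passed the filter through the senescent arm only and had to differ, so their values are a description. Not all SASP genes rose: CXCL12, the stromal chemokine SDF-1, was lower (140, 143 and 153 in proliferating cells, 74 to 79.5 with NT3), but its NT4 values of 120, 124 and 155 overlapped the proliferating ones (-0.52, adjusted p = 0.00195). IL11, an IL6-family cytokine, was not called over both controls, and lay above the proliferating range of 1057 to 1101 with NT3 (1287 to 1683) and below it with NT4 (649 to 945). CSF1, the macrophage growth factor, rose by only 0.31.

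Regulators of NF-kB and AP-1 were higher in 23 of 33 cases, lower in 3 and not called in 7 (median 0.90; 26, 3 and 4 without NT3 replicate 3). ATF3, a stress-induced bZIP factor, was 164, 162 and 141 in proliferating cells, 1270, 1190 and 1334 with NT3 and 804, 1049 and 906 with NT4 (2.78, SE 0.09, adjusted p = 1.38e-09). NFKBIZ, an inducible nuclear co-factor of NF-kB, was 283 to 316 against 1366 to 3212 (2.77, SE 0.15). For both genes the arms lay well apart. JUN (0.01, SE 0.07) and REL (0.04, SE 0.26) were not called and overlapped, so the subunit genes did not all move with the inducible regulators. BCL3, a nuclear IkB protein, and the receptor kinase gene IRAK1 were lower (-0.57 and -0.34).

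Interferon-stimulated effector genes, most of them antiviral, rose in 44 of 49 tested cases, fell in 1 and were not called in 4. The median was 1.79, and without NT3 replicate 3 the counts were 44 higher and 2 lower. Of the 49, 9 passed the filter through 1 arm only and had to differ, so the filter set part of the count and of the median. RSAD2 had 1 read over all 3 proliferating libraries (values 0, 0 and 0.886) and was 366, 304 and 399 with NT3 and 135, 238 and 179 with NT4. OAS1, an antiviral enzyme activated by double-stranded RNA, also had 1 read in proliferating cells and was 563, 401 and 578 with NT3 and 236, 345 and 360 with NT4. The ratio of means was 1420 for OAS1, and its 95% counting interval ran from 255 to 56104 because it rests on a single read. MX1, an antiviral GTPase with enough proliferating reads for a firm ratio, was 48, 34.1 and 45.2 in proliferating cells, 4791, 3499 and 5337 with NT3 and 1997, 2589 and 2528 with NT4, 81.5 times higher (6.24, SE 0.15, adjusted p = 2.15e-10). IFI6, a mitochondrial and ER antiviral protein, reached 6370 to 15636 from 142 to 163 (5.95, SE 0.14), and IFIT1, which binds viral RNA caps, 2744 to 5880 from 93.5 to 115 (5.11, SE 0.17). HERC6, a HERC-family ubiquitin ligase gene, was 34.5 to 52.4 against 1022 to 1579 (4.90, SE 0.12). All 6 senescent libraries exceeded all 3 proliferating ones for MX1, IFI6, IFIT1 and HERC6. These genes were named among the largest rises by a rule that admitted only genes without overlap, so that separation is a description. RSAD2 and OAS1 passed the filter through the senescent arm only and had to differ, so their values are a description. GBP2, a guanylate-binding protein induced mainly by interferon gamma, was the 1 member that fell, 418 to 467 against 207 to 315 (-0.80, SE 0.10). GBP1 (-0.08, SE 0.10) overlapped between the arms and was not called.

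Interferon signalling genes and nucleic acid sensors changed less, with 17 of 28 higher, 6 lower and 5 not called (median 0.43; 18 and 6 without NT3 replicate 3). DHX58 and IFIH1, RIG-I-like RNA sensor genes that interferon itself induces, rose from 13.1, 19.2 and 7.09 to 64.5 to 172 (3.10, SE 0.26) and from 60.3 to 115 up to 347 to 570 (2.55, SE 0.19). STAT2, of the complex that carries the interferon signal, rose from 1622 to 1815 up to 2411 to 3642 (0.74, SE 0.07), and its partner IRF9 from 393 to 445 up to 1344 to 1610 (1.83, SE 0.07). IRF7, the factor that amplifies type I interferon, stayed low, at 0.886 to 8.51 (11 reads in all) against 8.51 to 27, and passed the filter through the senescent arm only. CGAS, the cytosolic DNA sensor, was lower, 126, 137 and 143 in proliferating cells against 62.3 to 101.3 (-0.82, SE 0.14, adjusted p = 0.000369). SOCS1, a feedback inhibitor of JAK kinases, fell as well, 314 to 328 against 63.5 to 130 (-1.67, SE 0.18). JAK1 and IRF3, upstream of these genes, were not called (-0.09 and -0.02). IFNB1 had no read in proliferating libraries and 0 to 7.28 in senescent ones, below the filter, so it was not tested; it was picked after its values were seen.

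MHC class I and antigen processing genes could be read only in part. Of 25 listed genes 15 were tested, with 6 higher, 1 lower and 8 not called. B2M, the light chain of class I molecules, was 2160, 2254 and 2299 in proliferating cells, 5221, 4001 and 6164 with NT3 and 3698, 3686 and 3656 with NT4 (0.95, SE 0.11, adjusted p = 1.57e-05). HLA-B, a class I heavy chain, was 979 to 1159 against 1659 to 3115 (1.06, SE 0.11). Both were higher in all 6 senescent libraries. ERAP1, the peptide-trimming aminopeptidase, was lower (-0.34), and PSME1 of the proteasome activator overlapped between the arms. Within 29000000 to 33000000 of chromosome 6 (GRCh38.p14), 69 of 119 protein-coding genes were listed at 0 in all 9 libraries (58.0%), against 871 of 15109 elsewhere (5.76%); a value of 0 there, as for TNF or PSMB8, is therefore not read as lack of expression. Without NT3 replicate 3, 9 members were higher and 4 lower.

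Complement genes rose in 11 of 14 tested cases, of 23 listed, with 1 lower and 2 not called. Of the 14, 3 passed the filter through 1 arm only and had to differ. C2, C4A and C4B were at a mean of 0 in both arms, which is not read here as lack of expression. C3, the central component, had values of 7.86, 3.19 and 1.77 in proliferating cells (14 reads in all), 2960, 3065 and 2313 with NT3 and 1186, 1821 and 1255 with NT4. C3 passed the filter through the senescent arm only and had to differ, so its values are a description. C7, of the membrane attack complex, was 60.2 to 66.4 against 163 to 273 (1.83, SE 0.13). C5, which starts that complex, went down, from 169, 115 and 140 to 33.3 to 59 (-1.65, SE 0.15, adjusted p = 2.69e-06), and C1R was not called (-0.02, SE 0.09). Among 16 prostaglandin and eicosanoid genes, 9 were higher and 4 lower (10 and 5 without NT3 replicate 3). PTGS2 (COX-2), the inducible prostaglandin synthase, was 48.9, 36.2 and 63.8 against 1751 to 2262 with NT3 and 929 to 1008 with NT4 (4.82, SE 0.15, adjusted p = 8.51e-10). PTGER2, a prostaglandin E2 receptor, fell from 1299 to 1434 down to 222 to 417 (-2.11, SE 0.10). The synthase and the receptor of that pathway thus moved in opposite directions in every library.

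Leukocyte markers were measured beside these immune genes. Of 13 markers, 6 were tested and all 6 were higher, but 4 of them passed the filter through 1 arm only and had to differ. The summed level of all 13 was 670 to 709 in proliferating libraries, 954 to 1067 with NT3 and 1341 to 1502 with NT4. Most of the sum was CD68, a lysosomal protein (650 to 684, 866 to 951 and 1239 to 1378). PTPRC (CD45), the defining leukocyte gene, was at 0 in proliferating libraries and at 2.13 to 8.9 in senescent ones, and CD3E, LYZ, CD163 and TYROBP did not exceed 4.15 in any library. Epithelial markers summed to 2366 to 2600, 2402 to 3018 and 1818.5 to 1926.5 in the 3 groups, with CDH1 at 0 to 5.19. Of 14 epithelial markers 7 were tested, with 4 higher and 3 lower (CLDN4, KRT8 and KRT18), none by over 1 on the log2 scale. Of 9 endothelial markers 5 were tested, with 4 higher, 0 lower and 1 not called, and 2 of the 5 passed the filter through 1 arm only. Endothelial markers summed to 1803 to 1938, 2699 to 3809 and 2109 to 2525, nearly all of it TEK, with CDH5 at 0 to 1.04. Other members of these lists were higher at low levels: CD14 was 2.66 to 4.37 in proliferating and 19.2 to 38 in senescent libraries, SPI1 4.26 to 7.86 and 10 to 29.1, VWF 3.19 to 3.54 and 10.9 to 22.1, and KDR 0 to 1.06 and 8.9 to 18.4. CD14, SPI1, VWF and KDR were under 10 in every proliferating library. Any of them that passed the filter did so through the senescent arm and had to differ. PTPRC, CDH1 and CDH5 did not exceed 8.9 in any library, and the part of such cells in the immune gene lists was not tested.

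**Figure D3:**
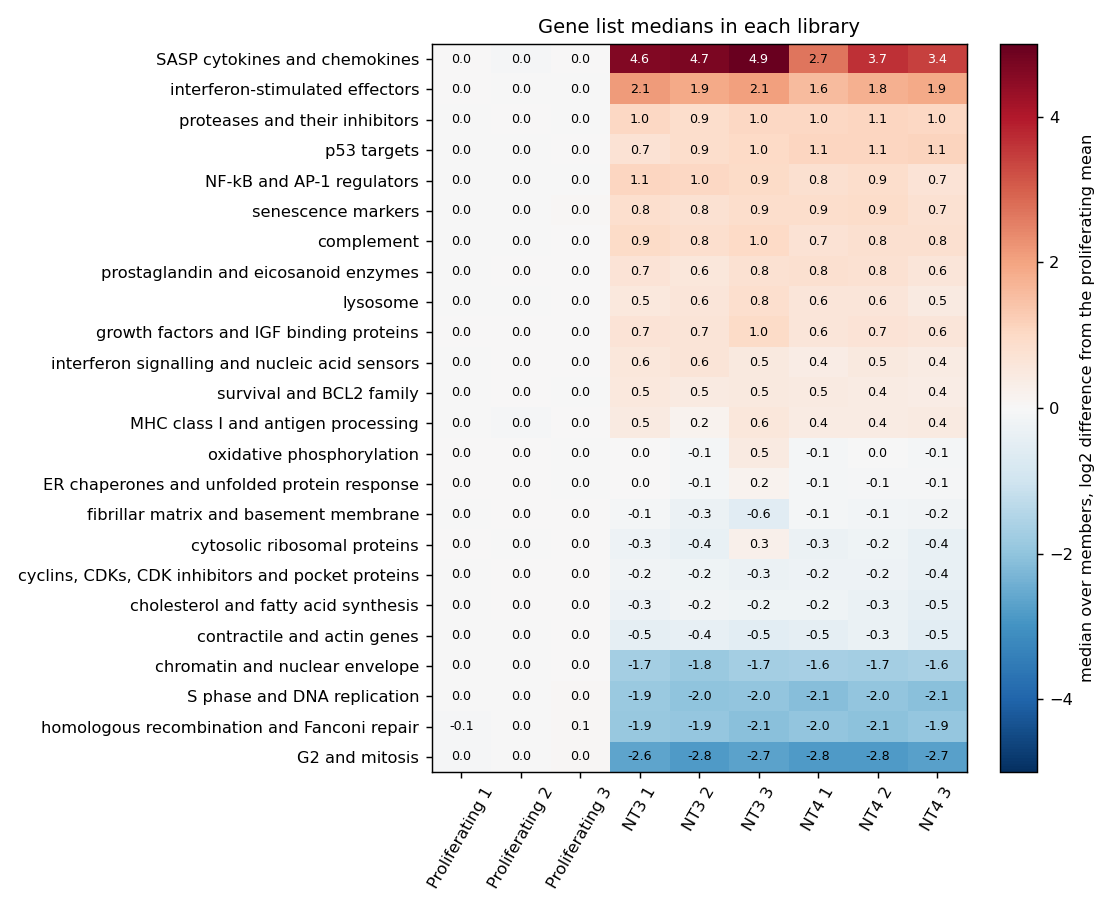
Median over the tested members of each of 24 gene lists (rows) in each of the 9 libraries (columns), as the log2 difference from the proliferating mean, printed in each cell and coloured from blue (lower) to red (higher). The S phase, mitosis, repair and chromatin lists lie between -2.8 and -1.6 in all 6 senescent libraries, the SASP list is at 4.6 to 4.9 with NT3 and 2.7 to 3.7 with NT4, and NT3 3 stands out in the ribosomal and oxidative phosphorylation lists.

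Growth factors and IGF binding proteins were higher in 26 of 43 cases, lower in 9 and not called in 8 (median 0.57; 27 and 11 without NT3 replicate 3). ANGPTL4, a secreted lipase inhibitor, was 31.4, 25.5 and 35.4 in proliferating cells, 937, 848 and 1190 with NT3 and 479, 658 and 555 with NT4 (4.56, SE 0.14, adjusted p = 9.7e-10). WNT2, a Wnt ligand of lung mesenchyme, went down from a range of 100.98 to 133 to one of 19.2 to 36.4 (-2.18, SE 0.18), as did PDGFD, a ligand of PDGFRB (-1.49, SE 0.13). VEGFA (0.03, SE 0.07) and TGFB1 (0.00, SE 0.07) overlapped between the arms and were not called. IGFBP3, an IGF-binding protein, is a member whose direction differed between the control groups, at 12488, 12638 and 12602 in proliferating cells, 33939, 28397 and 38064 with NT3 and 7376, 9319 and 7833 with NT4. Its pooled value (0.39) is a mean of a rise and a fall. IGFBP5 was 72779 to 75687 against 61938 to 103044 and was not called in the main fit. It was called higher with median centring, quantile normalization, the fit of all 7 groups, edgeR and DESeq2. The same held with NT4 alone (0.41) and without NT3 replicate 3 (0.32), and it stayed uncalled in the other alternatives.

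Proteases and their inhibitors were higher in 23 of 31 cases, lower in 3 and not called in 5 (median 1.05; 24 and 4 without NT3 replicate 3). MMP3 (stromelysin 1) was 27.1, 30.9 and 32.8 in proliferating cells, 581, 814 and 820 with NT3 and 570, 529 and 561 with NT4, 21.4 times higher (4.35, SE 0.12, adjusted p = 4.69e-10). MMP1, the interstitial collagenase, was 2107 to 2337 against 5856 to 7986 (1.59, SE 0.07). SERPINB2, the plasminogen activator inhibitor PAI-2, was 45.4, 56.4 and 51.4 against 1011 to 1746 (4.69, SE 0.09, adjusted p = 1e-10). Both proteases and this inhibitor thus rose in the same libraries. ADAMTS2, the procollagen N-proteinase, was 1479 to 1519 in proliferating cells, 521 to 713 with NT3 and 1299 to 1416 with NT4 (-0.71, SE 0.09). TIMP2, a metalloproteinase inhibitor, was not called over both controls.

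Matrix genes leaned lower, with 10 of 45 higher, 21 lower and 14 not called (median -0.20; 13 higher and 17 lower with median centring, 16 and 23 without NT3 replicate 3). COL15A1, a basement membrane collagen, was 4712, 4845 and 4642 in proliferating cells, 941, 712 and 675 with NT3 and 975, 1051 and 923 with NT4 (-2.45, SE 0.10, adjusted p = 3.88e-09). FBLN1 (fibulin 1) was 5402 to 5593 against 782 to 897 with NT3 and 1406 to 1500 with NT4 (-2.30, SE 0.06). POSTN, the matricellular protein periostin, rose from 516, 503 and 538 to 1515, 1428 and 1426 with NT3 and 2527, 2122 and 2583 with NT4 (1.85, SE 0.07). The most abundant gene of every library, COL1A1, was 251065 to 265548 against 186736 to 241664. The arms did not overlap, but the difference did not pass the main test (-0.21, SE 0.10, adjusted p = 0.0838). COL1A1 was called lower in some alternatives, among them edgeR (-0.18), DESeq2 (-0.17) and without NT3 replicate 3 (-0.17), and not in the rest.

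Contractile and actin genes were lower in 17 of 26 cases and higher in 2 (median -0.54; 19 and 2 without NT3 replicate 3). MYH10, non-muscle myosin IIB, was 5676, 5956 and 6101 in proliferating cells, 1737, 1719 and 1212 with NT3 and 1845, 1815 and 1821 with NT4 (-1.82, SE 0.10, adjusted p = 6.04e-08). FLNA, the actin crosslinker filamin A, was 92169 to 96931 against 22748 to 45153 (-1.31, SE 0.16); NT3 replicate 3 held the lowest value of both. ACTA2 (smooth muscle actin, a myofibroblast marker) fell from 4725 to 4896 down to 2782 to 3440 (-0.60, SE 0.07). The 2 that rose were ANKRD1, a YAP target, and TPM2, a tropomyosin. ANKRD1 went from 48.9, 45.8 and 51.4 to 682, 858 and 888 with NT3 and 154, 206 and 165 with NT4, and TPM2 rose by 0.37 (adjusted p = 0.0108).

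The label of lung fibroblast was checked against 15 fibroblast markers, all of which were detected in all 9 libraries and summed to 716758 to 731632 in proliferating libraries, 559695 to 681807 with NT3 and 746334 to 765838 with NT4. Of the 15, 10 were lower in senescent cells, 3 higher and 2 not called. PRRX1, a mesenchymal homeobox factor, was 1496, 1421 and 1536 in proliferating cells, 317, 358 and 323 with NT3 and 663, 643 and 717 with NT4 (-1.65, SE 0.07, adjusted p = 6.09e-09). S100A4 (FSP1), TWIST2 and the receptor gene PDGFRB were lower by more than 1 on the log2 scale too (-1.50, -1.18 and -1.08), with no overlap of the arms. LUM, the proteoglycan lumican, rose from 1393 to 1479 up to 2512 to 3824 (0.97, SE 0.11). FN1 (0.64) and FAP (0.16) were the other 2 that rose, and both overlapped the proliferating libraries; for FN1 the overlap came from NT3 replicate 3 (105446), the other 5 senescent libraries being at 168757 to 207907. Smooth muscle markers summed to 14547 to 14689 in proliferating libraries, 7437 to 8689 with NT3 and 8719 to 9767 with NT4, and their part in the contractile counts was not tested.

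Lysosomal genes were higher in 29 of 37 cases, lower in 3 and not called in 5 (median 0.58; 31 and 3 without NT3 replicate 3). FUCA1, lysosomal alpha-fucosidase, was 11.4, 7.45 and 8.86 in proliferating cells, 181, 219 and 220 with NT3 and 136, 130 and 127 with NT4 (4.03, SE 0.15, adjusted p = 2.69e-09). NPC1, which exports cholesterol from lysosomes, was 646 to 711 against 1546 to 2565 (1.68, SE 0.12). GLB1, the gene of the beta-galactosidase stained as a senescence marker, rose by 0.39 (1363 to 1479 against 1754 to 1958, SE 0.06). The lysosomal rises were thus far smaller for the marker enzyme than for FUCA1. GUSB, beta-glucuronidase, and PPT1, a palmitoyl-protein thioesterase, fell by 0.85 and 0.66 on the log2 scale.

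Cholesterol and fatty acid synthesis genes went both ways, with 9 of 32 higher, 16 lower and 7 not called (10 and 17 without NT3 replicate 3). SCD, the stearoyl-CoA desaturase, was 16280, 17087 and 17318 in proliferating cells, 4411, 4679 and 3664 with NT3 and 3500, 3200 and 3614 with NT4 (-2.15, SE 0.08, adjusted p = 2.58e-09). FADS2, a fatty acid desaturase, was 8745 to 9162 against 2845 to 3788 (-1.40, SE 0.08), and both desaturase genes were lower in all 6 senescent libraries. HMGCS1 and DHCR7, early and late enzymes of cholesterol synthesis, rose by 1.03 (SE 0.07) and 0.58 (SE 0.07). Serine synthesis genes listed with the unfolded protein response were lower: PHGDH, its first enzyme, was 3602, 3497 and 3708 against 582 to 768 (-2.43, SE 0.09, adjusted p = 2.1e-09) and PSAT1, its second, 3127 to 3187 against 780 to 976 (-1.83, SE 0.07). In that list of 30 genes, 9 were higher, 11 lower and 10 not called (11 and 14 without NT3 replicate 3). DNAJB9, an ER co-chaperone, rose from 264 to 300 up to 1008 to 1320 (2.02, SE 0.07), and the stress sensor ERN1 (IRE1) from 55.8 to 69.9 up to 101.9 to 343 (1.85, SE 0.30). XBP1, whose transcript IRE1 splices, overlapped between the arms (0.02, SE 0.06).

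Ribosomal protein and respiratory chain genes moved little. Of 74 ribosomal protein genes 27 were lower, 1 higher and 46 not called (median -0.235), and none passed 1 on the log2 scale. RPL3 had the largest fall, 20028 to 20421 against 10590 to 15470 (-0.72, SE 0.10), and RPS19 was the 1 that rose (0.44, adjusted p = 0.00854). This count rested on 1 library: without NT3 replicate 3, 62 were lower, 1 higher and 11 not called. The list median of NT3 replicate 3 was 0.3 above the proliferating mean on the log2 scale, while the other 5 senescent libraries lay below it. Several ribosomal protein genes have processed pseudogenes of near-identical sequence, so their values are uncertain where reads were shared. Of 50 oxidative phosphorylation genes 41 were not called (median 0.02), with 6 lower and 3 higher, and 17 lower and 7 higher without that library. NDUFS1 and SDHA, subunits of complexes I and II, fell by 0.40 and 0.37 on the log2 scale, and NDUFA1 of complex I was higher (0.48, adjusted p = 0.0135).

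Survival genes were higher in 17 of 25 cases and lower in 6 (17 and 7 without NT3 replicate 3). BIRC3 (cIAP2), an inhibitor of apoptosis that NF-kB induces, was 138, 145 and 137 in proliferating cells, 748, 809 and 794 with NT3 and 699, 923 and 861 with NT4 (2.51, SE 0.09, adjusted p = 2.13e-09). BCL2L2, the anti-apoptotic BCL-w, was 856 to 893 against 1961 to 2187 (1.24, SE 0.06). The arms did not overlap for either gene. BCL2 itself fell from 107.4, 99 and 104.5 to 12.1 to 26 with NT3 and 30.8 to 61.2 with NT4 (-1.87, SE 0.27, adjusted p = 9.12e-05). APAF1, the scaffold of the apoptosome, fell too, from 1146 to 1229 down to 279 to 362 with NT3 and 718 to 912 with NT4 (-1.21, SE 0.10). In a list of 30 senescence markers, which shares genes with the lists above, 20 were higher, 5 lower and 5 not called (median 0.88; 23 and 5 without NT3 replicate 3).

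Some genes were near silent in proliferating cells and well expressed in senescent ones. By a rule set after the values were seen, 14 genes were under 10 in every proliferating library and at 100 or more in every senescent library, and 0 genes met the reverse rule. Of the 14, 6 were interferon-stimulated effectors (OAS1, OAS2, IFI44L, BST2, RSAD2 and HERC5), 3 were chemokines (CXCL1, CXCL5 and CXCL10) and 1 was C3. The remaining 4, EHF, SULF2, PARM1 and GABRA2, were in no list. EHF, an ETS factor of epithelial cells, was 5.24, 3.19 and 0 in proliferating cells, 345, 487 and 314 with NT3 and 105.7, 182 and 163 with NT4 (log2 fold change 6.31). The rule fixed that these 14 genes differ, so their values are a description. The epithelial markers given above went both ways. EPCAM was 12.8 to 15.7 in proliferating cells, 26.2 to 47.8 with NT3 and 12.2 to 22.1 with NT4. The part of epithelial genes in this result was not tested. SULF2, an extracellular heparan sulfate sulfatase, was 4.43 to 8.51 against 150 to 298 (5.05), and GABRA2, a GABA-A receptor subunit, 4.43 to 8.73 against 144 to 267 (4.70). PARM1, a mucin-like membrane protein, was 7.45 to 9.74 in proliferating cells, 100.7 to 151 with NT3 and 271 to 311 with NT4. SLC16A6, a monocarboxylate-family transporter in no list, was 16.6, 5.32 and 8.86 against 369 to 650 (5.67, SE 0.26) and was the largest rise outside the lists by the rule for named genes.

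By the rule for named genes, the 15 largest falls lay between -4.02 (LMNB1) and -3.22 (CDC25C, a phosphatase that activates CDK1). SAPCD2, a spindle orientation protein, was 368, 444 and 367 against 22.7 to 39.4 (-3.65, SE 0.18), and NEURL1B, a ubiquitin ligase gene of Notch ligand signalling, 902 to 965 against 64.6 to 87.4 (-3.60, SE 0.11). CDCA7, which recruits the remodeller HELLS to chromatin, was 464 to 562 against 42.5 to 52.9 (-3.41, SE 0.12). NUSAP1, a spindle microtubule protein, was among the tightest of them, at 1802 to 1884 against 178 to 204 (-3.22, SE 0.07). The rule admitted only genes whose arms did not overlap, for rises as for falls. The separation of the arms was thus set by the rule and is a description. The plot of level against change shows the largest rises at low to middle levels and the falls at middle levels.

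**Figure D4:**
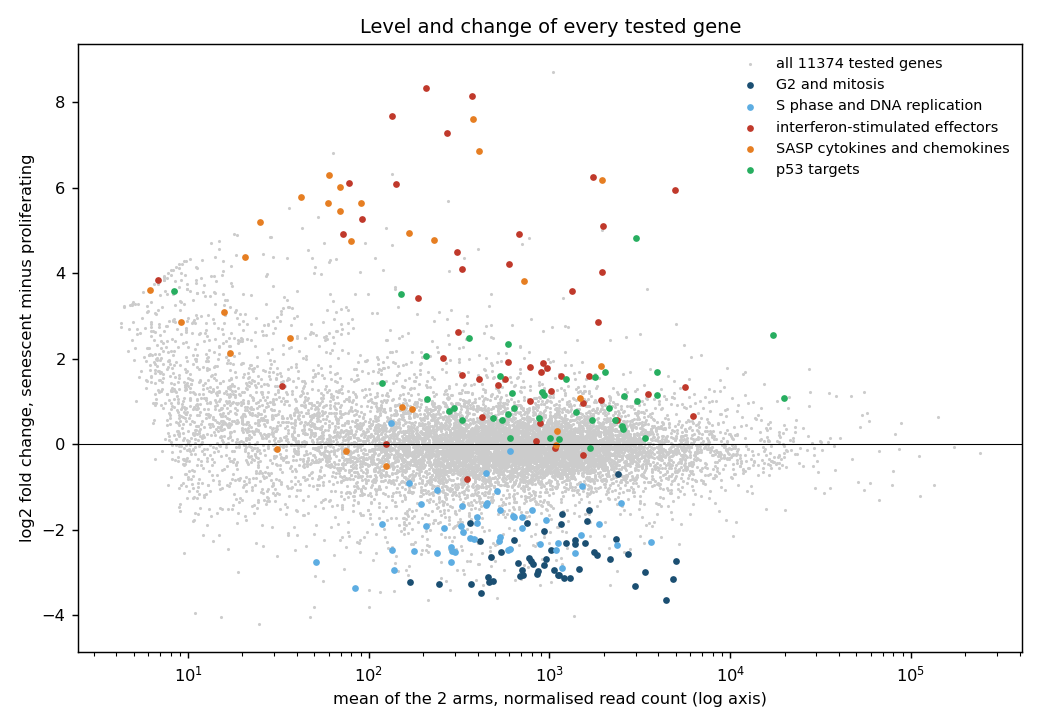
Log2 fold change (vertical axis) against the mean normalised read count of both arms (horizontal log axis) for all 11374 tested genes in grey, with 5 gene lists in colour. G2 and mitosis genes form a band near -2.74 and S phase genes one near -1.96, while interferon effectors spread from -0.80 to 8.33 and SASP genes from -0.52 to 7.61.

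The change from proliferating cells differed in part between the 2 control groups. Nothing in the labels says that the libraries of a group came from separate cultures, so siRNA and culture cannot be told apart here. NT4 differed from NT3 at an adjusted p under 0.05 in 1872 of the 11374 genes (16.5%), 973 upward and 899 downward; 170 of these differences exceeded 1 on the log2 scale. Of the mitotic genes, 3 of 51 were lower and 1 higher with NT4, with list medians against proliferating cells of -2.72 with NT3 and -2.84 with NT4. In the S phase list 8 of 51 were lower with NT4 and 0 higher, against 899 lower and 973 higher of all 11374 genes. The share that differed in either direction was near the 16.5% of all genes, but all 8 went downward. In the chromatin list 5 of 28 were higher and 1 lower. In the SASP list 16 of 29 genes were lower with NT4 than with NT3 and 1 was higher, and medians against proliferating cells were 4.88 with NT3 and 3.31 with NT4. Among interferon effectors 10 of 49 were lower with NT4 and 1 higher (medians 1.95 and 1.78). Of the matrix genes 13 of 45 were higher with NT4 and 2 lower. LAMA2, a basement membrane laminin chain, was 279, 234 and 255 in proliferating cells, 113, 150 and 81.3 with NT3 and 653, 487 and 569 with NT4, so that its libraries lay below the proliferating ones with NT3 and above them with NT4. The count of genes that differed between the controls was 2906 without NT3 replicate 3, 896 without NT4 replicate 1 and 985 without NT4 replicate 3. With sets of serial codes in the column names as a replicate block, chosen after seeing the data, it was 442.

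Promoters of the lists held different elements. The RefSeq table had 35116 promoters (250 bases before to 50 after a start) and covered 9246 of the tested genes (81.3%); a gene can have several, overlapping starts, so the intervals, exact binomial at 95%, describe counting only. Both strands were searched, and no element contains another, although matches can overlap in part. An interferon response element (GAAANNGAA, as in RSAD2 above) was in 36 of 55 promoters of interferon effectors (65.5%, 51.4 to 77.8%) and in 8.11% of all promoters. An NF-kB site (GGANTTTCC, as in CXCL1) was in 10 of 26 SASP promoters (38.5%, 20.2 to 59.4%) and in 1.64% of all. E2F sites (TTTGGCGC or TTTCCCGC, as in UHRF1) were in 22 of 54 S phase promoters (40.7%) but in 1 of 54 G2 and mitosis promoters (1.85%), against 2.27% of all. The CHR element (TTTGAA, as in MKI67) showed the reverse, in 32 of 54 mitotic promoters (59.3%) and 1 of 54 S phase promoters (1.85%), against 15.2% of all. A CCAAT box (CCAAT) was in 59.3% of S phase and 66.7% of mitotic promoters, but also in 61.5% of SASP, 55.8% of chromatin, 51.7% of repair, 46.8% of p53 target and 38.2% of interferon effector promoters, against 34.6% of all. A TATA box (TATAAA) was in 6 of 26 SASP promoters (23.1%) and 11.5% of all. Over genes that rose by more than 1, without regard to lists, 10.7% of promoters held the interferon element and 3.23% the NF-kB site, against 6.54% and 1.45% in genes that were not called. The lists were drawn up with such regulators known, so these shares describe the lists and test nothing.

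**Figure D5:**
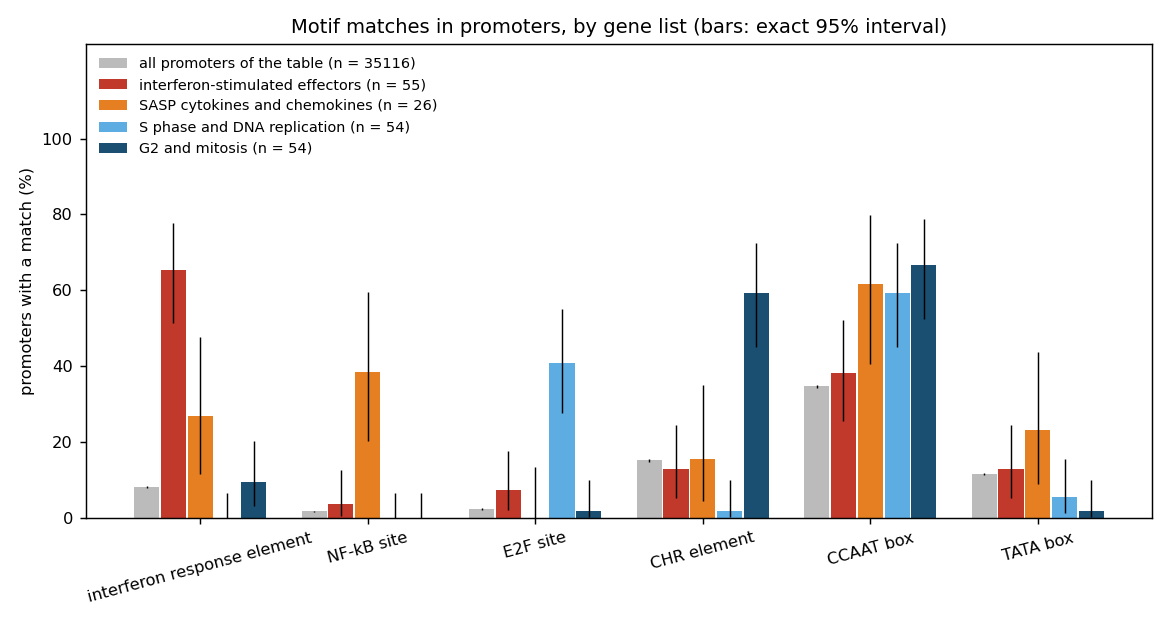
Share of promoters (vertical axis, %) with a match to each of 6 elements (groups of bars) for all 35116 promoters of the table in grey and for 4 gene lists in colour, with exact binomial 95% intervals. The interferon element peaks in interferon effectors (65.5%), the NF-kB site in SASP genes (38.5%), E2F sites in S phase genes (40.7%) and the CHR element in mitotic genes (59.3%).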

How the data were processed

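RNA of 21 IMR90 libraries was captured by poly(A) and sequenced, per the labels' protocols, and 9 libraries in 3 groups of 3 were used here. The submitters' processing notes name Trimmomatic 0.38.1, HISAT2 2.2.1, featureCounts 2.0.3 and DESeq2 2.11.40.8 and the build hg38. The authors deposited 1 table of read counts divided by a size factor for each library, treated here as a signal, for 16383 genes listed by Entrez number up to 140467; genes with higher numbers were not analysed here. Whole reads were recovered for 100% of the values of the 9 libraries (tolerance 0.01 read), so depth is known, and the count tests below were run on those reads. Genes at 10 or more in at least 3 of the 9 libraries were tested on log2(value + 1) with limma 3.58.1 in R 4.3.3, as 3 group means with trended variances, for the mean of NT3 and NT4 minus proliferating and for NT4 minus NT3, with Benjamini-Hochberg adjustment over all 11374 genes and a threshold of 0.05. All adjusted p-values in the text come from this limma fit, and the procedure was tested on simulated data. The 20 alternatives included edgeR 4.0.16 (quasi-likelihood) and DESeq2 1.42.0, which called 7274 and 7310 genes. Replicate numbers follow column order and only name libraries. The named genes were the 15 largest rises and falls with a mean of 300 or more in the higher arm and no overlap, up to 6 members of each of 24 lists with a mean of 100 or more, a fixed panel and cell type markers. RSAD2 and UHRF1 were named for their promoters, and BST2, HERC5, EHF, SULF2, PARM1, GABRA2, PCNA, STAT2, IRF9, CCND3, IFNB1, TNF and PSMB8 after their values were seen. A few listed genes are not reported here. The comparison, the members and the lists were chosen with earlier results of these data known. Counting intervals cover counting error only.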

Additional observations from a re-analysis of the deposited data

Results flagged for a closer look

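For 17 named genes the change from proliferating cells differed between the control siRNAs by more than 1 on the log2 scale, by limma's test of NT4 minus NT3 with Benjamini-Hochberg adjustment. Over all 11374 tested genes, 170 did. Besides BST2 and PARM1, picked after their values were seen, the 17 came from 197 tested named genes. Many of those were named for a large change from proliferating cells, so the count of 17 is a description. IGFBP3 was 1.40 above proliferating cells with NT3 and -0.63 with NT4, a difference of -2.03 (adjusted p = 1.18e-05), and LAMA2 was -1.19 with NT3 and 1.14 with NT4, a difference of 2.34 (adjusted p = 6.99e-05). These 2 genes changed sides. The inflammatory genes rose with both siRNAs and less with NT4: the difference was -2.51 for CXCL1 (adjusted p = 0.00832), -2.12 for IL6 (adjusted p = 0.000369), -2.03 for CXCL5 (adjusted p = 0.00014), -1.60 for CXCL8 (adjusted p = 0.000196), -1.47 for IL1B (adjusted p = 0.00364) and -1.03 for PTGS2 (adjusted p = 0.00284). ANKRD1, a YAP target, differed by -2.20 (4.02 with NT3 and 1.82 with NT4). BST2 (tetherin), an interferon effector, differed by -1.05 (adjusted p = 0.00947), and PARM1 by 1.30 (adjusted p = 0.00101). Both were higher than in proliferating cells with either siRNA, as the rule that picked them required. CXCL1 and CXCL5 were under 10 in every proliferating library and passed the filter through the senescent arm only, so they too had to differ from proliferating cells. EPCAM, an epithelial marker at low level, differed by -1.17 (adjusted p = 0.0258). The remaining 5 genes had values below those of proliferating cells with both siRNAs and closer to them with NT4: APAF1 differed by 1.31, SERPINF1 by 1.22, ADAMTS2 by 1.10, BCL2 by 1.05 and PRRX1 by 1.02. For SERPINF1, a secreted protease inhibitor relative, the value with NT4 was -0.01. Without NT3 replicate 3, which stood apart from its group, 2906 genes differed between the siRNAs against 1872 with it. The count was 442 with sets of column codes as a replicate block.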

How the results depend on the processing

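The count of 7243 genes moved by less than 1.5 times under every alternative except the fold threshold, and leaving out 1 library gave 6296 to 8404, the highest without NT3 replicate 3. With an absolute fold change over 1 on the log2 scale also required, 2054 genes differed between the arms and 170 between NT4 and NT3. The fit of all 7 groups gave 3222 for NT4 against NT3, and leaving out 1 library gave 896 (without NT4 replicate 1) to 2906 (without NT3 replicate 3). Of 152 named genes called, 126 stayed called in the same direction in all 20 alternatives and 25 lost the call in 1 or more. Among named genes not called, 21 were called in 1 or more alternatives in the direction of the main fit. For a gene not called in the main fit, a change of sign was counted as a reversal only where the alternative called it. Direction reversed for CSF1R with quantile normalization (-0.0206), for IGFBP3 (-0.63), FBLN2 (0.46), LAMA2 (1.14), XIAP (0.32) and THY1 (0.0036) with NT4 alone, for TIMP2 (-0.16), CCN1 (0.26) and IL11 (0.40) with NT3 alone, and, among fits that leave out 1 library, for COX6C (-0.13 without NT3 replicate 3 to 0.079 without NT3 replicate 2) and NOTCH3 (-0.095 without NT3 replicate 2 to 0.12 without NT3 replicate 3); the cause was not tested. Of 24 list medians, 18 moved by more than the spread between libraries in 1 or more alternatives and 0 changed sign beyond it. No paired analysis was possible because the columns carry no replicate number for the comparison with proliferating cells. The column names carry serial codes, which the labels do not explain, in 3 sets that each hold 1 NT3 and 1 NT4 library. With those sets as a replicate block, chosen after seeing the data, 442 genes differed between NT4 and NT3. Deviations of same-set libraries correlated at 0.0042, -0.13 and -0.14, and none of the 6 libraries correlated best with its own set. Genes with under 10 reads in proliferating cells have fold changes limited by depth.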
